A study of Mus musculus with 6 samples.

Results

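The collagen genes of mouse femur were described in 3 RNA-seq libraries from ovariectomised (OVX) mice. Members were the protein-coding genes whose symbol has the form Col, a type number, a and a chain number. The rule found 44 genes among the 22046 protein-coding genes listed and the 54532 genes listed in all. The rule itself uses names only, while the family was taken up with earlier results of these data known.

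Removal of the ovaries is a model of bone loss after menopause. The labels give 6 samples in 2 groups of 3, all wild type (WT) and all OVX. Controls received saline solution, and the Zin group was given zingerone, which occurs in cooked ginger, for 8 weeks at a daily oral dose of 100 mg/kg. Only the 3 OVX libraries could be tied to columns of values, so zingerone against OVX was not analysed here, and the comparisons below are between libraries of 1 group. The titles of OVX libraries 1, 2 and 3 carry 8, 9 and 10 weeks, without saying what the weeks count, and a difference between libraries cannot be told apart from a difference between these weeks. The sources used here give neither strain nor age at surgery. The protocol describes ground femur, while the labels also name RAW264.7, a mouse macrophage line, and osteoclast precursor cells. Markers went with whole femur: Hbb-bs, Bglap and Acta1, genes of red cells, osteoblasts and skeletal muscle, were all read in every library.

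Collagens are triple helices of 3 chains and are the main proteins of the extracellular matrix. Fibrillar collagens form the rope-like fibrils of bone, tendon, skin and cartilage. Network collagens form sheets such as basement membranes, and the FACIT group (fibril-associated collagens with interrupted triple helices) sits on the surface of fibrils. Osteoblasts lay down type I collagen, whereas chondrocytes make types II, IX, X and XI. Each chain is hydroxylated, glycosylated and folded in the endoplasmic reticulum, then trimmed and crosslinked outside the cell.

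Library 2 stood apart from the other libraries in its collagen transcripts. Collagen genes took 173507 of 17017907 reads in library 1, 449204 of 16964740 in library 2 and 103692 of 16581579 in library 3. These are 1.02% (95% exact binomial interval 1.01 to 1.02), 2.65% (2.64 to 2.66) and 0.625% (0.622 to 0.629) of the reads, and the intervals cover counting error only. The mean was 1.43% ± 1.07 (SD, n = 3), and the highest share was 4.23 times the lowest. In bulk tissue, fewer cells of a type and less RNA per cell cannot be told apart. Since no label names separate animals, this SD and all p-values below describe 3 libraries whose spread may be partly technical. Without library 2 the mean was 0.822%.

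Levels are in FPKM, the reads of a gene scaled by its length and by a total for its library. Of the 44 genes, 28 averaged 1 FPKM or more and 16 lay below. For each gene, a chi-square test set its reads in the 3 libraries against the totals behind the FPKM, with Benjamini-Hochberg adjustment over 14011 genes. This test asks whether the libraries differ by more than counting error. All 28 collagens passed at 0.05, against a background of 37.4% of all genes tested, and the largest adjusted p among them was 0.0025, for Col3a1. On log2(FPKM + 1), 16 of the 28 spanned 2-fold or more from the lowest to the highest library, against 5.89% of all genes. Library 2 was highest for 25 of the 28, against 34.8% of all genes, and it was lowest for none. This library was singled out because earlier results of these data had it apart in cartilage, bone and muscle genes. The counts and differences given for it are therefore descriptions and no independent result. Without library 2, far fewer members differed: 14 of the 25 that passed the filter in libraries 1 and 3 (17.6% of all genes under that filter). On log2(FPKM + 1), 1 of them, Col10a1, did so by at least 2-fold (1.98% of all genes). In FPKM itself, Col11a1 (2.09-fold) and Col14a1 (2.49-fold) also did.

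The median difference of library 2 from the mean of the others was 1.14 on log2(FPKM + 1) over the 28 collagens and -0.00 over all genes tested. The deposited values are scaled so that the typical gene is alike between libraries. A median near 0 over all genes follows from that scaling and is no separate result. Col9a1, Col9a2 and Col9a3 reached the mean of 1 FPKM only through library 2, so they had to differ. Filtered on libraries 1 and 3 instead, 25 collagens remained. Of these 25, library 2 was highest for 22 (33.2% of all genes under that filter) and 13 differed at least 2-fold (5.96% of all genes), with a median difference of 0.97. With no filter, 30 of all 44 passed the chi-square test (21.6% of all genes), and the median difference was 0.49. Library 2 was then highest for 31 of the 44, and the share over all genes was not computed.

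**Figure D1:**
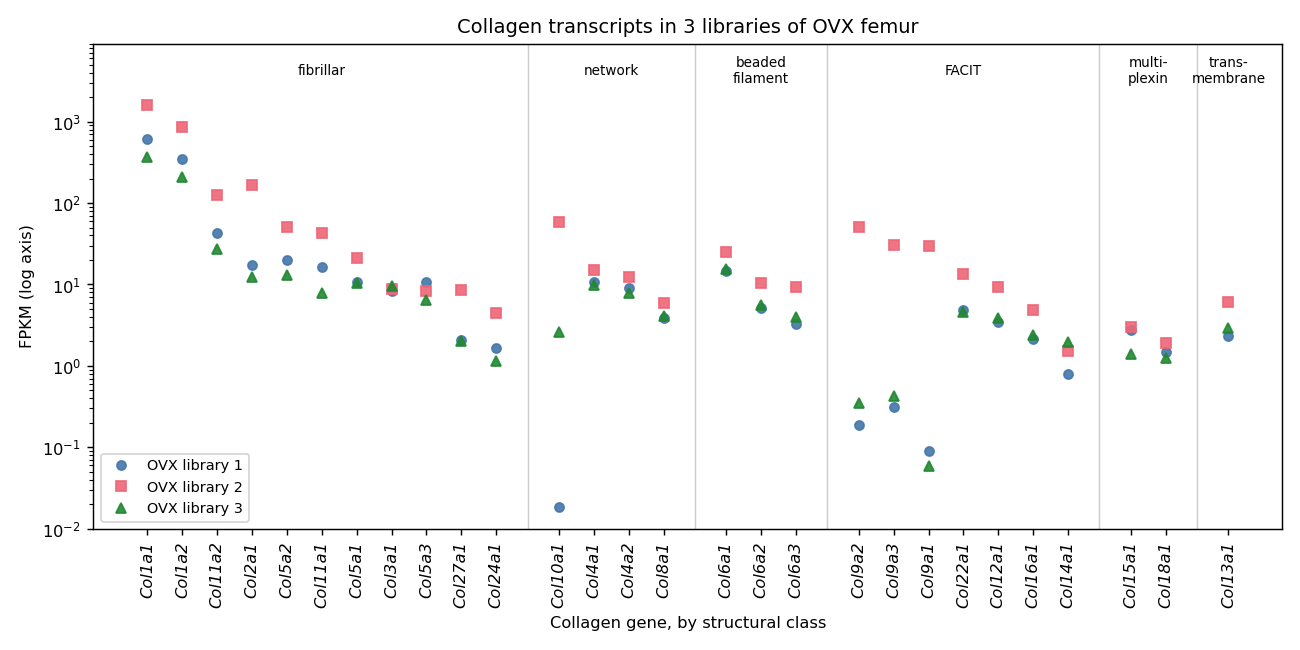
FPKM of the 28 tested collagen genes, on a log axis, by structural class; each point is 1 OVX library. Library 2 (squares) lies above both other libraries for 25 genes, and for Col10a1 and the Col9 genes the gap spans more than a factor of 10.

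The type I chains made up most of the collagen transcripts. Col1a1 (chr11:94936224-94953042, plus strand, mm10), the alpha-1 chain of type I collagen and the main protein gene of bone matrix, had 614, 1597 and 364 FPKM in libraries 1, 2 and 3. Library 2 was 2.60 times library 1 (95% interval 2.58 to 2.62) and 4.38 times library 3 (4.33 to 4.43). By its mean of 858 ± 651 FPKM (SD, n = 3), Col1a1 was number 33 of the protein-coding genes. Col1a2 (chr6:4504814-4541544, plus strand), the partner chain, had 352, 865 and 207 FPKM, in the same order of libraries. Both type I genes were highest in library 2 and lowest in library 3, and together they held 82.9%, 77.2% and 77.8% of the summed collagen FPKM.

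The minor fibrillar chains that join type I fibrils split into groups. Col5a2, a chain of the type V collagen that limits fibril width, had 20.3, 50.4 and 12.9 FPKM, the order of libraries seen for Col1a1. Col24a1, a fibrillar collagen of forming bone, had 1.66, 4.52 and 1.15 FPKM, again in that order. Col5a1, the other main type V chain, had 10.6, 21.4 and 10.5 FPKM, and library 3 was 0.988 times library 1 (0.920 to 1.06). Col5a3, the third type V chain, had 10.8, 8.26 and 6.51 FPKM and was the only one of the 28 highest in library 1 (adjusted p = 2.2e-26 by chi-square over the 3 libraries). The type V chains thus did not share a single order of libraries.

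Col3a1 (chr1:45311538-45349706, plus strand), the type III collagen of vessels, skin and loose connective tissue, varied least. It had 8.30, 8.76 and 9.56 FPKM, a mean of 8.87 ± 0.635 (SD, n = 3). Library 3 was 1.15 times library 1 (1.07 to 1.24), and the order of libraries was not that of Col1a1. Its neighbour Col5a2 lies on the opposite strand 24614 bases away with no gene between them, yet Col5a2 was 3.90 times as high in library 2 as in library 3 (3.72 to 4.10). The adjacent genes therefore differed in how they varied.

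Col11a1 and Col11a2, chains of type XI collagen, are named for cartilage fibrils and are also made outside cartilage. Col11a2 (chr17:34039437-34066685, plus strand) had 43.0, 125 and 27.7 FPKM, and was the third most abundant collagen by mean FPKM. Col11a1 (chr3:114030540-114220718, plus strand) had 16.2, 43.1 and 7.75 FPKM. Both followed the order of Col1a1, with library 2 highest and library 3 lowest. Col27a1, a fibrillar collagen of developing cartilage, had 2.07, 8.54 and 2.0 FPKM, a library 2 level 4.20 times the mean of the others.

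Divided by Col1a1 in the same library, some collagens kept a near-constant level. Col1a2 was 57.3%, 54.2% and 56.8% of Col1a1. Col11a2 was 7.01%, 7.82% and 7.59%, and Col5a2 was 3.30%, 3.16% and 3.55%. Col11a1 was 2.64%, 2.70% and 2.13%, and Col24a1 was 0.271%, 0.283% and 0.316%. These 5 were the members, of the 27 besides Col1a1, whose ratio varied less than 1.5-fold over the libraries. Col3a1 went from 0.549% of Col1a1 in library 2 to 2.62% in library 3, and Col2a1 from 2.79% in library 1 to 10.4% in library 2.

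A ratio to Col1a1 within 1.5-fold was held by 27 of 11772 protein-coding genes tested (0.229%, Col1a1 itself not counted among the 27). This rule was chosen after the values had been seen, and 3 libraries are few points to judge likeness by. The 22 that were not collagens were led by Cpz (a carboxypeptidase), Sparc (osteonectin, a collagen-binding matrix protein) and Sfrp5 (a secreted Wnt inhibitor). Sparc had 447, 1267 and 286 FPKM, and its ratio to Col1a1 varied 1.09-fold. Ifitm5, a bone-specific membrane protein, Sp7, a transcription factor of osteoblasts, and Bglap2, an osteocalcin gene, were also among them, with ratios that varied 1.26-, 1.44- and 1.48-fold. Only 2 of the 9 osteoblast markers, Sp7 and Bglap2, were among the 22, and genes of lipid metabolism, Scd1 (1.33-fold) and Thrsp (1.34-fold), were too.

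**Figure D2:**
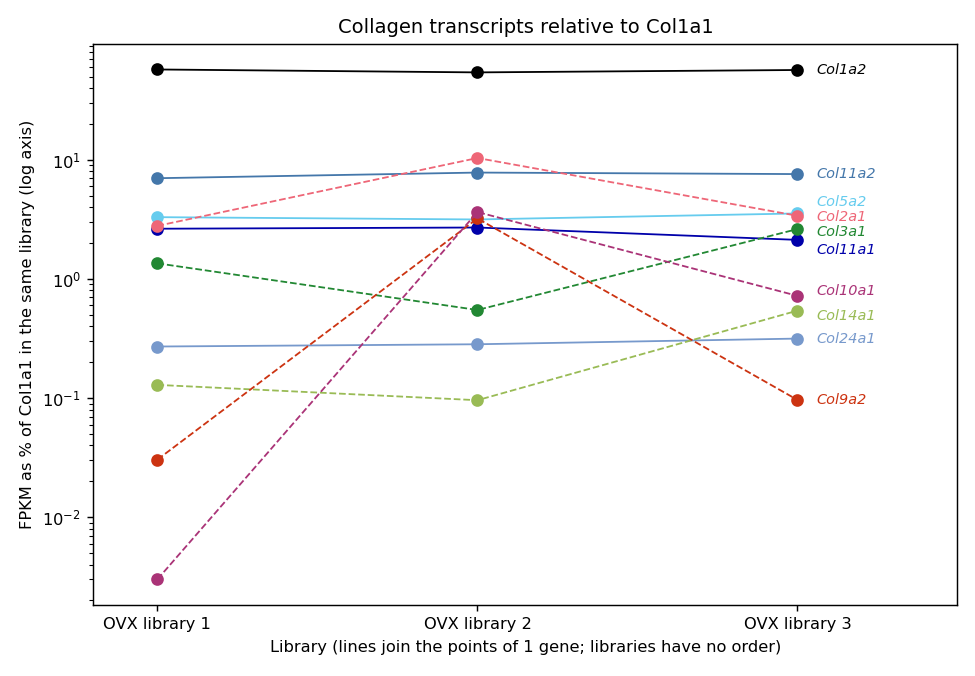
FPKM of 10 collagen genes as a percentage of Col1a1 in the same OVX library, on a log axis; lines only join the points of a gene. Solid lines (Col1a2, Col11a2, Col5a2, Col11a1, Col24a1) stay within 1.5-fold, whereas dashed lines (Col2a1, Col3a1, Col9a2, Col10a1, Col14a1) do not.

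The 100 bases before the RefSeq start (GRCm38.p6) are shown for genes that kept step with Col1a1 (Col11a1, Col11a2), for the steady Col3a1, and for genes far higher in library 2 (Col9a1, first start, and Col10a1). Sequences run 5′ to 3′ on the plus strand, on which all 5 genes lie. Capitals mark 3 motifs searched on both strands: TATAAA of the TATA box, then CCAAT of the CCAAT box, and the GC box core GGGCGG. On the minus strand CCAAT reads as ATTGG, and the GC box core reads as CCGCCC.
Col11a1 (chr3:114030440-114030539): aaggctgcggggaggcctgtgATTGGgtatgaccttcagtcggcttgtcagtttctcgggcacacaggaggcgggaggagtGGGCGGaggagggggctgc
Col11a2 (chr17:34039038-34039137): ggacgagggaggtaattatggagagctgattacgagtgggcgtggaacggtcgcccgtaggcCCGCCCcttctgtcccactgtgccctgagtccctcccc
Col3a1 (chr1:45311438-45311537): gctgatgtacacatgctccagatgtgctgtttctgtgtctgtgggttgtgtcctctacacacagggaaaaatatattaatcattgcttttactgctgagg
Col9a1 (chr1:24177510-24177609): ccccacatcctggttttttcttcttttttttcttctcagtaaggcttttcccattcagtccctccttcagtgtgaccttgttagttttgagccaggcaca
Col10a1 (chr10:34389881-34389980): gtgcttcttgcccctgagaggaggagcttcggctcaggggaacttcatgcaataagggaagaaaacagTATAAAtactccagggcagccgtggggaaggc

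Both type XI promoters hold GGGCGG, and Col11a1 also holds CCAAT on the minus strand. No printed motifs overlap. Col10a1 holds TATAAA starting at -32 from the RefSeq start, and neither Col3a1 nor Col9a1 (first start) holds any of the motifs in this window. Other genes of these groups differed from the printed ones: Col1a2 and Col24a1, which kept step with Col1a1, hold none of the motifs, Col9a2, far higher in library 2, holds GGGCGG, and the second start of Col9a1 holds CCAAT. RefSeq promoters were matched for 35 of the 44 genes (38 promoters). GGGCGG was in 47.4% of these collagen promoters and in 24.7% of all 32851 promoters, over the same 100 bases. CCAAT was in 10.5% and 18.9%, and TATAAA in 5.26% and 5.56%. Collagen promoters had a median GC content of 64.5%, against 55% over all promoters. These are matches of letters and were not tied to any binding.

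The collagens of cartilage differed most between libraries. Col2a1 (chr15:97975602-98004695, minus strand), the type II collagen of cartilage fibrils, had 17.1, 165 and 12.4 FPKM. Library 2 was 9.65 times library 1 (9.28 to 10.0) and 13.4 times library 3 (12.8 to 14.0). In library 2 Col2a1 was above Col11a2 (165 against 125 FPKM), and in libraries 1 and 3 it was below it.

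Type IX collagen, a FACIT that coats type II fibrils, was nearly absent outside library 2. Col9a1 (chr1:24177610-24252684, plus strand) had 8, 2546 and 5 reads, or 0.0914, 29.8 and 0.0597 FPKM. Col9a2 (chr4:121039385-121055322, plus strand) had 10, 2680 and 18 reads, or 0.187, 51.4 and 0.352 FPKM. Col9a3 (chr2:180597790-180622189, plus strand) had 21, 1999 and 27 reads, or 0.315, 30.8 and 0.424 FPKM. All 3 chains were therefore high in the same library, and the 95% interval of the ratio of library 3 to library 1 held 1 for each (0.168 to 2.26, 0.823 to 4.56 and 0.732 to 2.50). Col9a3 shares 234 exon bases with Tcfl5 on the opposite strand, 6.07% of its exon length, and Tcfl5 itself was at a mean of 0.0745 FPKM.

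Col10a1 (chr10:34389981-34397085, plus strand), the network collagen of hypertrophic chondrocytes, had the widest range of all members. It had 1, 3068 and 136 reads, or 0.0185, 58.2 and 2.63 FPKM. Library 2 was 22.1 times library 3 (18.6 to 26.5), and library 3 was 142 times library 1 (25.1 to 5655). A single read in library 1 sets that last ratio, and its interval is correspondingly wide. Col10a1 thus separated libraries 1 and 3 as well as library 2.

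Types II, IX and X together made up 1.52%, 10.5% and 2.15% of the summed collagen FPKM. The cartilage list held these and type XI, 7 genes in all, so Col27a1 was outside it. Collagens outside the list were also mostly highest in library 2. Among the 21 tested ones, library 2 was highest for 18 (34.8% of all genes tested). Of the 21, 9 differed at least 2-fold (5.89% of all genes), and the median difference was 0.85.

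**Figure D3:**
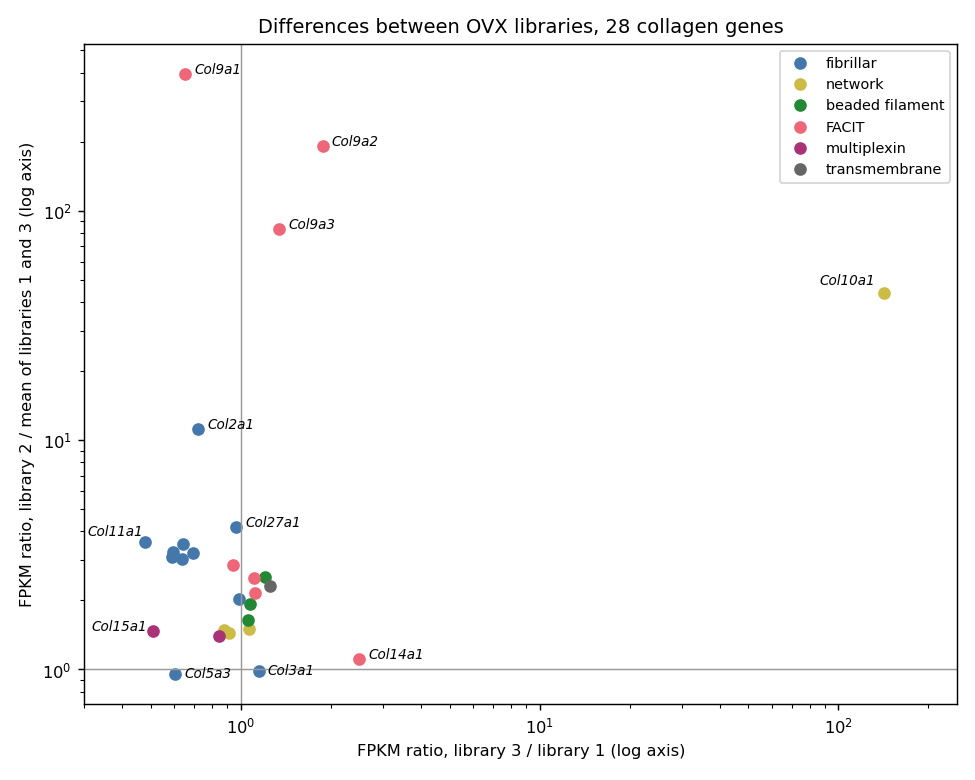
Each point is 1 of the 28 collagen genes; the x axis is the FPKM ratio of library 3 to library 1 and the y axis that of library 2 to the mean of libraries 1 and 3, both on log axes, coloured by class. Col9a1, Col9a2, Col9a3 and Col10a1 lie above a ratio of 40 on the y axis, and Col3a1 and Col5a3 lie just below 1.

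Apart from Col10a1, the tested network collagens Col4a1, Col4a2 and Col8a1 varied 1.5-, 1.59- and 1.55-fold from the lowest to the highest library. Col4a1 (chr8:11198423-11312826, minus strand), a basement membrane chain, had 10.9, 15.0 and 9.98 FPKM, and Col4a2 (chr8:11312805-11449287, plus strand), its partner, had 8.94, 12.5 and 7.86 FPKM. The genes lie head to head with start sites 21 bases apart and share 22 exon bases. Library 2 was highest for both, by 1.38 times (1.28 to 1.48) and 1.40 times (1.29 to 1.52) over library 1. Col8a1, a short-chain network collagen of vessel walls and other tissues, had 3.83, 5.95 and 4.08 FPKM. The remaining type IV genes, Col4a3 to Col4a6, had means below 0.2 FPKM.

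Type VI collagen forms beaded microfibrils around cells. Col6a1 had 14.8, 24.9 and 15.7 FPKM, Col6a2 had 5.17, 10.3 and 5.54, and Col6a3 had 3.28, 9.21 and 3.97. Library 2 was 1.69, 2.0 and 2.81 times library 1 for these chains, with intervals of 1.56 to 1.82, 1.83 to 2.18 and 2.57 to 3.07. The chains of this trimer thus differed by unequal factors, and the interval of Col6a3 did not overlap that of Col6a1.

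Among the other FACIT genes, Col22a1, found at tissue junctions, had 4.87, 13.4 and 4.57 FPKM. Col12a1, which coats type I fibrils and is made by osteoblasts and tendon cells, had 3.48, 9.25 and 3.87 FPKM, and Col16a1 had 2.13, 4.88 and 2.38. Col14a1, another FACIT of type I fibrils, had 0.792, 1.53 and 1.97 FPKM and was, with Col3a1, 1 of the 2 highest in library 3 among the 28 tested. Its library 3 level was 2.49 times that of library 1 (1.96 to 3.20; adjusted p = 1.67e-12 by chi-square over the 3 libraries).

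The multiplexins of basement membrane zones, Col15a1 and Col18a1, had 2.73, 3.03 and 1.39 FPKM and 1.5, 1.93 and 1.27 FPKM. Col15a1 was 2.18 times as high in library 2 as in library 3 (1.79 to 2.67), and 1.11 times as high in library 2 as in library 1 (0.944 to 1.30). Col13a1, a transmembrane collagen, had 2.30, 6.02 and 2.89 FPKM.

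The other 16 members had means of 0.0298 to 0.706 FPKM and 1 to 131 reads per library. They include Col7a1 (anchoring fibrils of skin), Col17a1 (hemidesmosomes), Col4a3 and Col4a4 (kidney basement membrane) and Col8a2, a network chain. They took 0.241%, 0.102% and 0.447% of collagen reads. Of these 16, 4 were highest in library 1, 6 in library 2 and 6 in library 3, and no library was highest for most of them.

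Chains that assemble into 1 protein were compared by their FPKM ratio within a library. Col1a1 to Col1a2 was 1.74, 1.85 and 1.76 (mean 1.78 ± 0.0540, SD, n = 3). Col4a1 to Col4a2 was 1.23 ± 0.0384. From the lowest to the highest library these ratios varied 1.06-fold each, while the levels themselves differed 4.38-fold for Col1a1 and 1.5-fold for Col4a1.

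The other ratios varied more. Col6a1 to Col6a2 was 2.70 ± 0.249, Col11a1 to Col11a2 was 0.334 ± 0.0492, Col6a3 to Col6a1 was 0.282 ± 0.0777, and Col8a1 to Col8a2 was 6.68 ± 1.78. Col5a1 to Col5a2 was 0.587 ± 0.202, with 0.524, 0.424 and 0.813 in libraries 1, 2 and 3. For type IX, Col9a1 to Col9a2 was 0.413 ± 0.215 and Col9a3 to Col9a2 was 1.16 ± 0.545, and the ratios of libraries 1 and 3 rest on 5 to 27 reads per gene. In library 2, where reads were many, these were 0.580 and 0.599.

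Of the 14 collagens that differed over libraries 1 and 3 alone, 10 were higher in library 1: Col1a1, Col1a2, Col2a1, Col4a2, Col5a2, Col5a3, Col11a1, Col11a2, Col15a1 and Col24a1. The other 4 were higher in library 3: Col3a1, Col6a3, Col10a1 and Col14a1. Col11a1 was 2.09 times as high in library 1 as in library 3 (1.97 to 2.22), and Col1a1 was 1.68 times as high (1.66 to 1.71). The type I, II and XI genes were thus higher in library 1 than in library 3, while Col10a1 went the other way.

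The enzymes and carriers that make collagen were also mostly highest in library 2, with smaller median differences. In the hydroxylation and glycosylation list 11 of 14 tested genes differed (37.4% of all genes) and 4 did so at least 2-fold (5.89% of all genes). Library 2 was highest for 13 (34.8% of all genes), with a median difference of 0.51. Colgalt2 (0.423, 3.90 and 0.641 FPKM), 1 of the 4, reached the mean of 1 FPKM only through library 2. P4hb, a subunit of prolyl 4-hydroxylase and a general disulfide isomerase, had 136, 154 and 132 FPKM. Colgalt1, a collagen galactosyltransferase, had 37.8, 38.3 and 37.0 FPKM and did not pass the test (adjusted p = 0.536 by chi-square). Crtap, part of the prolyl 3-hydroxylation complex, had 19.4, 32.9 and 18.5 FPKM.

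Plod2, the lysyl hydroxylase of telopeptides, and P3h4, a partner of the lysyl hydroxylation complex, had 6.70, 20.3 and 6.57 FPKM and 3.56, 12.8 and 4.14 FPKM. They were named after their values were seen. Both were highest in library 2, and libraries 1 and 3 lay close together.

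For folding and export, 8 of 12 tested genes differed, 4 at least 2-fold, beside the same 37.4% and 5.89% of all genes, with a median difference of 0.26. Hspa5, a general chaperone, had 125, 127 and 124 FPKM (adjusted p = 0.512 by chi-square). Pdia3, a general disulfide isomerase, had 101, 109 and 106. Serpinh1, the collagen-specific chaperone, had 65.8, 168 and 63.5 FPKM, and library 2 stood far above the others for it alone of these 3.

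All 5 tested genes of propeptide cleavage differed and 3 did so at least 2-fold (37.4% and 5.89% of all genes), with a median difference of 1.04. Pcolce, the enhancer of procollagen C-proteinase, had 10.9, 24.4 and 11.7 FPKM. Bmp1, that proteinase, had 6.25, 16.8 and 7.38 FPKM, and Adamts2, the N-proteinase, had 7.16, 12.7 and 7.59. Each of the 5 was highest in library 2. Pcolce2 (0.163, 9.47 and 0.758 FPKM), 1 of the 3 at 2-fold, reached the mean of 1 FPKM only through that library, so it had to differ.

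All 7 tested crosslinking genes differed, 2 of them at least 2-fold, against 37.4% and 5.89% of all genes (median difference 0.64). F13a1 and Tgm2, transglutaminases that also act outside collagen, had 31.4, 38.4 and 37.4 FPKM and 14.4, 19.8 and 19.2 FPKM. Lox, lysyl oxidase, had 10.1, 22.3 and 8.61 FPKM. Lox was the one of these with library 2 far above both others. Loxl4 (0.838, 3.90 and 0.703 FPKM), the other gene at 2-fold, reached the mean of 1 FPKM only through library 2.

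All 11 tested collagen receptors differed, 3 at least 2-fold, where 37.4% and 5.89% of all genes did (median difference 0.24). Itgb1, the common beta-1 integrin, had 77.8, 83.7 and 81.4 FPKM, and Gp6, the collagen receptor of platelets, had 10.2, 6.83 and 11.0. Mrc2, which takes up collagen fragments, had 4.36, 12.7 and 6.28 FPKM. Library 2 was thus highest for Itgb1 and Mrc2 and lowest for Gp6, and over the list it was highest for 7 of 11 genes.

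**Figure D4:**
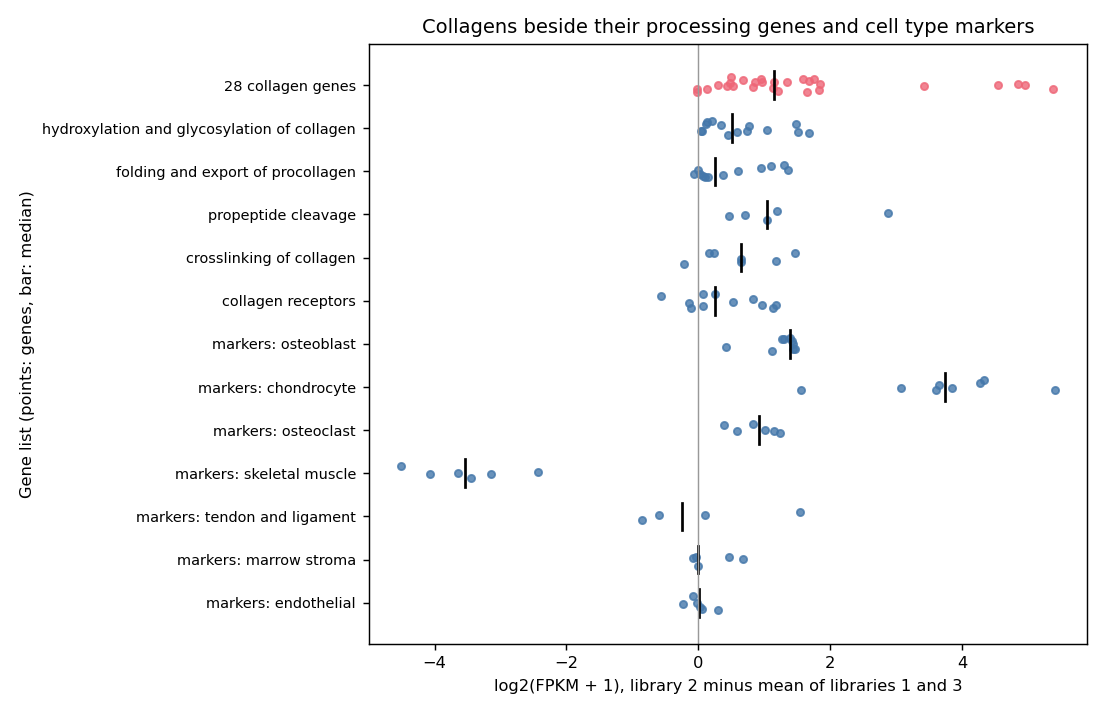
Difference of library 2 from the mean of libraries 1 and 3 on log2(FPKM + 1) for the 28 collagen genes and for other lists; points are tested genes and bars are medians. The medians are 1.14 for collagens, 1.38 for osteoblast markers, 3.74 for chondrocyte markers and -3.54 for skeletal muscle markers. Most of the chondrocyte genes, and some genes of other lists, reached the filter only through library 2.

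Markers of several cell types were, like most collagens, highest in library 2, and their part in the result was not tested. Libraries 1 and 3 did not keep the same order in all of these lists. Summed FPKM of 9 osteoblast markers was 1248, 2634 and 1028, and all 9 were highest in library 2. Of the 9, 4 were lowest in library 3 (Bglap, Bglap2, Sp7 and Runx2). The other 5 were lowest in library 1 (Spp1, Ibsp, Dmp1, Alpl and Phex). The order of the sums of libraries 1 and 3 was therefore not that of most markers. Bglap, Bglap2 and Spp1, bone matrix genes and the most abundant of the list, had 608, 957 and 259 FPKM, 394, 693 and 199 FPKM, and 102, 527 and 357 FPKM. Bglap and Bglap2 are near-identical copies, so the split of reads between them is uncertain. The summed level of 9 chondrocyte markers was 7.71, 391 and 41.3, and all 8 tested were highest in library 2. Cnmd, Acan, Ucma, Hapln1, Matn3 and Sox9 reached the mean of 1 FPKM only through library 2, so they had to be high there. Of those tested, only Chad and Comp passed that filter in libraries 1 and 3. Chad and Comp, cartilage matrix proteins, had 2.96, 188 and 23.1 FPKM and 4.17, 73.2 and 14.2 FPKM, and Cnmd, chondromodulin, had 0.0628, 49.2 and 0.328. The chondrocyte sum was 5.35 times as high in library 3 as in library 1, and Col10a1 was also higher in library 3, while Col2a1 was lower there.

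Osteoclast markers summed to 397, 1102 and 829 FPKM, with all 6 tested highest in library 2. Ocstamp (0.427, 1.98 and 0.992 FPKM) reached the mean of 1 FPKM only through library 2. All 6 tested markers were lowest in library 1, whereas Col1a1 was lowest in library 3. The leading ones are enzymes of bone resorption: Ctsk had 85.4, 397 and 330 FPKM, Acp5 had 109, 368 and 253, and Mmp9 had 187, 307 and 223. Skeletal muscle markers went the other way, at 915, 64.3 and 617 FPKM, and all 6 tested were lowest in library 2. Acta1 and Tnnt3, of the contractile apparatus, had 441, 28.3 and 299 FPKM and 246, 20.8 and 151 FPKM. Ckm, muscle creatine kinase, had 69.7, 4.18 and 43.9 FPKM, and Tnnc2 was listed at 0 in every library. The library with the fewest muscle transcripts had the most collagen transcripts, but library 1 was above library 3 in both.

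Adipocyte markers summed to 157, 313 and 103 FPKM, the order of Col1a1, led by Cfd (55.1, 184 and 9.25), Adipoq (58.5, 73.0 and 52.3) and Fabp4 (41.7, 51.2 and 40.9). Tendon and ligament markers summed to 13.7, 29.1 and 18.7 FPKM, of which Fmod, a fibril-binding proteoglycan, gave 6.07, 23.5 and 9.13. Thbs4 and Tnmd, the others leading this list, were lowest in library 2, at 2.35 and 0.702 FPKM.

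Marrow stroma markers summed to 245, 256 and 257 FPKM, with 4 of 5 passing the test (37.4% of all genes) and none at 2-fold. Their leading genes were Cxcl12, a chemokine that holds blood stem cells (206, 210 and 216), Kitl, the ligand of Kit (13.9, 12.6 and 12.8), and Lepr, the leptin receptor (12.0, 12.5 and 13.8). Endothelial markers summed to 57.6, 55.1 and 55.8 FPKM, with 3 of 6 passing, near the 37.4% of all genes, and none at 2-fold, led by the junction genes Pecam1 (19.6, 18 and 18.5) and Cdh5 (13.4, 13.2 and 13.5) and by Egfl7 (7.82, 8.11 and 7.74). The stroma sum is mostly Cxcl12. The platelet-derived growth factor receptors of that list, Pdgfra (3.58, 6.92 and 4.36) and Pdgfrb (9.23, 13.8 and 10.2), were highest in library 2, as most collagens were, and were named after their values were seen.

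Erythroid markers summed to 36551, 39504 and 45790 FPKM, and all 4 were highest in library 3. Their leading genes were the globins Hbb-bs (20397, 22806 and 26898) and Hba-a1 (15498, 15942 and 18076), which have close copies, and Alas2 of heme synthesis (440, 526 and 566). Neutrophil markers summed to 23118, 25432 and 23573 FPKM, led by S100a9 (10271, 11284 and 10747), S100a8 (6872, 7870 and 6907) and Ngp (3331, 3472 and 3328), all proteins of granulocytes. None of these differed 2-fold. Of the epidermal markers, Krt5 and Krt14 had 0 reads in all 3 libraries, which allows up to 3 reads in each, and Krt10 had 0.657, 1.04 and 0.544 FPKM.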

How the data were processed

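Total RNA was taken from frozen, powdered femur, per the labels' protocols. Trimmomatic, FastQC, STAR, featureCounts and the mm10 build are named in the submitters' processing notes. The sources used here give no versions, strandedness or annotation, so reads where genes overlap on opposite strands cannot be assigned. The authors deposited FPKM values with gene coordinates and lengths (other deposited columns). Of the columns of values, 3 matched no label and were not used, and the planned test of zingerone against OVX was not run.

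FPKM multiplied by gene length gave whole reads for 100% of values (within 0.01 read). The totals behind the FPKM were 17279919, 16845977 and 16533661 in libraries 1, 2 and 3. These are not the reads listed, which were 17017907, 16964740 and 16581579. A median-of-ratios scaling, which sets the typical gene alike between libraries, gave 1.00017, 1.00002 and 0.999802 times these totals. Reads were tested by chi-square against these totals (scipy 1.17.1, pandas 2.3.3) for genes averaging 1 FPKM or more, with Benjamini-Hochberg adjustment and a threshold of 0.05. This compares libraries, not conditions, and even small differences pass at high read counts. Log values are log2(FPKM + 1), which understates differences of low genes. Intervals are 95% and cover counting error only, since the sources name no molecular identifiers. The code was tested on simulated data.

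Every member was accounted for. Of each list that is no collagen class, the 3 genes with the highest mean FPKM are named, except for 1 marker list that is not reported here. Members and lists (collagen classes, biosynthesis, receptors and cell type markers) were chosen with earlier results of these data known. All 44 genes had the same coordinates in GENCODE M21, and 13 (8 tested) share exon bases with another gene. Sequences come from RefSeq.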

Additional observations from a re-analysis of the deposited data

How the results depend on the processing

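With a mean of 5 FPKM or more, all 20 tested collagens differed (43.1% of all genes tested). With no filter, 30 of 44 did (21.6%). Under the other filter and the scalings run, all tested collagens differed. The median-of-ratios scaling gave nearly the totals already used, so it could hardly move any result. Library 2 was highest for 18 of 20 (mean of 5 FPKM or more) to 31 of 44 (no filter). The share over all genes was 34.8% in the main setting and was not computed at either end. The median difference was 0.49 (no filter) to 1.46 (mean of 5 FPKM or more), and 0.72 with a pseudocount of 5. The count at least 2-fold was 10 with a pseudocount of 5 (1.76% of all genes) and 20 with 0.1 (8.95%), against 16 (5.89%). The mean collagen share was 0.448% of summed FPKM and 1.52% of reads without globin and mitochondrial genes, against 1.43%. Leaving out each library in turn, 14 to 27 collagens differed (17.6% to 28% of all genes) and 1 to 16 did so at least 2-fold (1.98% to 4.30%), the lowest of each being without library 2. Without library 1 or library 3, the only omissions that allow it, library 2 was highest for 26 and 27 of 28. The median difference was 1.06 and 1.14. Fewer libraries then compete to be highest, so these counts cannot be set beside 34.8%, and the share over all genes was not computed. The collagen share was 0.822% to 1.83% (without libraries 2 and 3). Chain ratios with each library left out in turn were 1.75 to 1.80 for Col1a1 to Col1a2, 1.21 to 1.24 for Col4a1 to Col4a2, 0.474 to 0.668 for Col5a1 to Col5a2, 2.62 to 2.85 for Col6a1 to Col6a2, 0.238 to 0.311 for Col6a3 to Col6a1, 5.86 to 7.62 for Col8a1 to Col8a2, 0.329 to 0.534 for Col9a1 to Col9a2, 0.902 to 1.45 for Col9a3 to Col9a2 and 0.313 to 0.361 for Col11a1 to Col11a2. Ratios of reads, not divided by gene length, were 0.942 for Col1a1 to Col1a2, 1.38 for Col4a1 to Col4a2, 1.42 for Col6a1 to Col6a2, 0.769 for Col6a3 to Col6a1, 11.7 for Col8a1 to Col8a2, 0.676 for Col9a1 to Col9a2 and 0.624 for Col11a1 to Col11a2, which follows from the unequal listed lengths. The remaining read ratios, which moved by less than the SD over libraries, were 0.520 for Col5a1 to Col5a2 and 1.45 for Col9a3 to Col9a2. The filter on libraries 1 and 3 was added after seeing the data. No paired analysis was possible because only the OVX group had columns that matched its labels. The alternatives planned for zingerone against OVX were not run. Col10a1 in library 1 and the type IX genes in libraries 1 and 3 rest on 1 to 27 reads, which limits their ratios.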
